A study of Rattus norvegicus with 99 samples.

Results

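The transition from compensated hypertrophy to failure in the aortic-banded left ventricle (LV) was described by asking, gene by gene, whether the response to aortic banding (AOB) in failing hearts differed from the response in compensated hearts. The failure response was the difference between AOB-F and its age-matched shams (Sham-LF). The compensation response was the difference between AOB-H and its own shams (Sham-H), and the interaction was the first difference minus the second. Genes were chosen by the LV log2 fold changes and p-values of these 3 contrasts, which placed them in 3 classes. A gene changed in failure only if its adjusted p was under 0.05 in failure, its unadjusted p was 0.05 or more in compensation and its unadjusted p for the interaction was under 0.05. A gene changed at both stages if its adjusted p was under 0.05 in failure and its unadjusted p in compensation was under 0.05 in the same direction. A gene reversed if the unadjusted p was under 0.05 at both stages in opposite directions. Of 11672 genes tested, 334 fell into these classes, 259 in failure only, 63 at both stages and 12 reversed. The comparison used 19 of the 99 libraries of the series. Because the classes were cut from these very LV values, the LV values below describe the genes and carry no further test, whereas the interventricular septum (Spt) and the pulmonary-banded right ventricle (RV) were not used to choose them.

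All 33 animals of the series were male F1 rats from Wistar Kyoto females crossed with Lewis males. In the AOB groups a clip that was loose when placed sat around the aorta, so that the load on the LV grew with the animal, and the sham groups were operated on without such a load. AOB-H (6 animals used) and Sham-H (6 used) were taken 7 weeks after surgery at 11 weeks of age. AOB-F (4 animals) and Sham-LF (3 animals) were taken 24 weeks after surgery at 30 weeks of age. These are the ages in the sample labels, and other parts of the submitters' notes give different ones. Failure therefore differed from compensation in age and in time under load as well as in stage, and these cannot be told apart in the banded animals. Each library held polyadenylated RNA of whole LV tissue, in which more cells of a type and more RNA per cell cannot be told apart. One animal of AOB-H (replicate 1) and one of Sham-H (replicate 6) were left out because their ventricle labels were uncertain.

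A ventricle that works against a raised pressure first thickens by enlarging its cardiomyocytes, and keeps its output at that stage. Under continued load the chamber may dilate and fail, with natriuretic peptides released from stretched muscle, extracellular matrix laid down by fibroblasts, and a shift of energy supply away from fatty acid oxidation. Comparing both stages with their own shams describes which genes moved in hypertrophy and which at failure, with age and time under load still part of the difference.

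The LV libraries held 12.6 to 24.2 M (mega) counts. Levels are given as CPM, a gene's counts divided by its library's TMM-scaled total in M, and changes as log2 fold changes ± SE. All libraries of AOB-F and Sham-LF came from 1 run of library numbers (library series 2), while AOB-H and Sham-H were spread over 3 series, so the series was a term of the fit. The first principal component of LV (36.3% of the variance) followed the series. As a check of the chamber labels, the log2 difference between RV and LV of each animal over 50 genes that separate them was divided by the median of the other animals, so that 1 is typical. It was -0.03 for AOB-F replicate 4, whose chambers did not separate, and 0.42 to 1.89 for the other animals of the 4 groups. Libraries of 1 group did not move alike. AOB-F replicates 1 and 4 were the top pair in 209 of 222 genes that were higher in failure (94.1%, against 26.6% of all genes tested) and the bottom pair in 119 of 139 that were lower (85.6%, against 27.6%). In compensation, AOB-H replicate 3 was the most extreme library in the same direction for 173 of the 222 (77.9%, against 16.8%) and 113 of the 139 (81.3%, against 17.0%).

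At failure 361 genes differed between AOB-F and Sham-LF (3.09% of genes tested), with 222 higher (1.9%) and 139 lower (1.19%), by edgeR's quasi-likelihood test with Benjamini-Hochberg adjustment. In compensation 0 genes passed the same test (781 at an unadjusted p under 0.05), the smallest adjusted p being 0.233, and DESeq2 called 1, Dusp26 (log2 0.84). For the interaction 0 genes passed with either tool, 979 reached an unadjusted p under 0.05 (8.39%), and the smallest adjusted p was 0.474. No single gene was thus shown to respond differently at the 2 stages once all genes were counted, and the 3 classes rest on unadjusted values there. The failure count itself rested on few libraries. It fell to 0 without any 1 of Sham-LF replicates 1, 2 and 3, and to 1 (Hs3st2) without AOB-F replicate 1 or without AOB-F replicate 4. It rose to 717 without AOB-F replicate 2, to 1355 without AOB-F replicate 3 and to 581 without AOB-H replicate 3. It was also 0 when only the 19 libraries of the 4 groups, or only library series 2, were fitted, 102 without the series term and 729 with DESeq2. With AOB-F replicate 1 or 4 left out, 353 of the 361 were still tested and kept their direction. Of these, 353 and 352 had an unadjusted p under 0.05. The rest include any gene that was no longer tested after the count filter. AOB-F and Sham-LF lie wholly in library series 2, so the failure fold changes compare libraries of that series only. The spread behind their p-values was estimated over all 30 libraries of the fit, other series included.

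**Figure D1:**
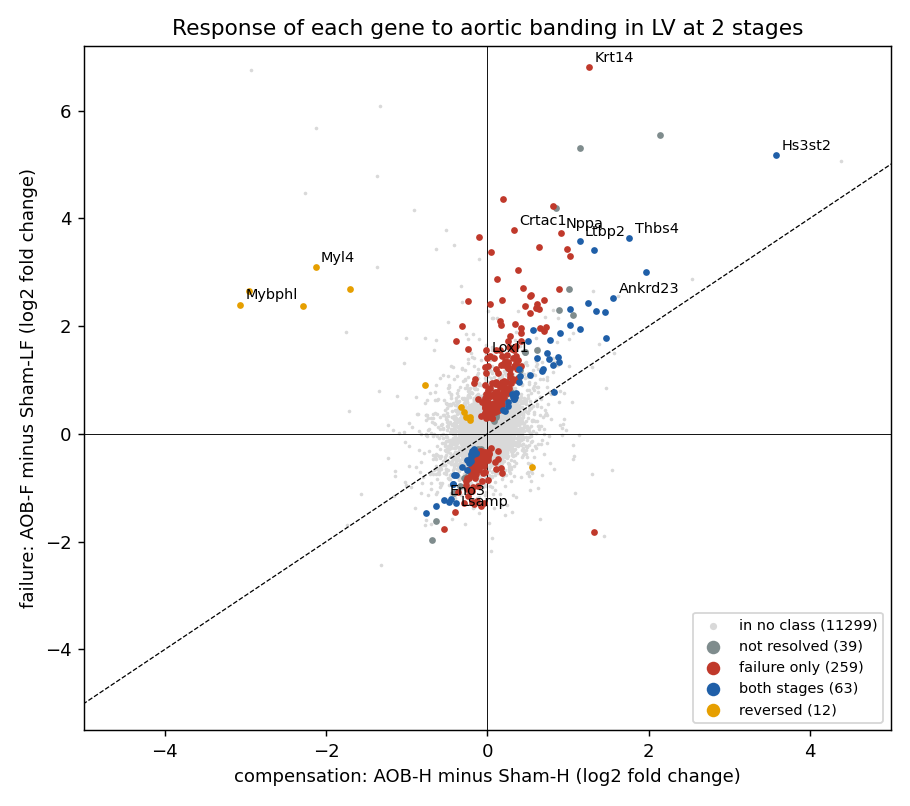
Log2 fold change of each gene in compensation (AOB-H against Sham-H, horizontal axis) and in failure (AOB-F against Sham-LF, vertical axis) in LV, with the genes of the 3 classes coloured, 39 genes called in failure but in none of them in dark grey, all other tested genes in light grey, and a dashed line where both values are equal. The 163 genes that rose in failure only lie between -0.39 and 1.26 on the horizontal axis (median 0.15) and at a median of 0.95 on the vertical one.

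**Figure D2:**
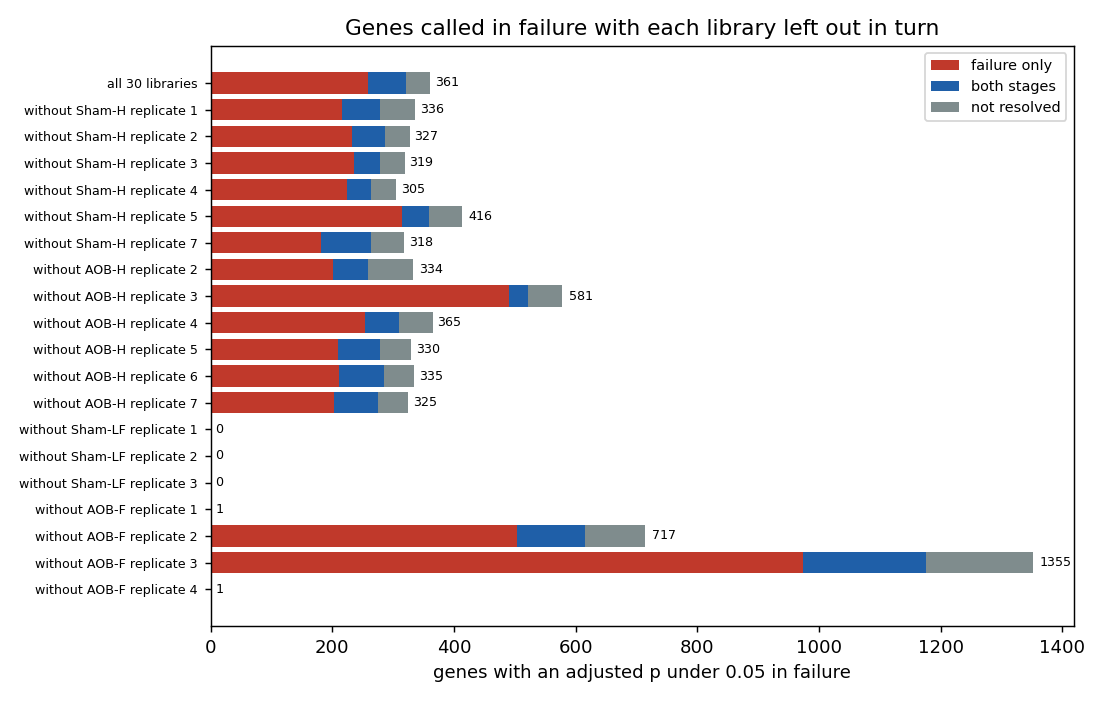
Number of genes with an adjusted p under 0.05 in failure when each library of the 4 groups is left out of the fit in turn, split by class, and the count with all 30 libraries (361). Genes of the reversed class are not drawn. Leaving out any Sham-LF library gives 0 and leaving out AOB-F replicate 3 gives 1355.

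Of the 259 genes in failure only, 163 were higher and 96 lower in failing LV. The higher genes had a median log2 fold change of 0.95 in failure and 0.15 in compensation, and the lower genes -0.60 and -0.10, against medians of 0.01 and -0.00 over all genes tested. Compensation values of the higher genes ran from -0.39 to 1.26, and an unadjusted p of 0.05 or more does not show that a gene did not respond. In 190 of the 259 the compensation value was under 0.25 of the failure value in size, and in 218 it had the same sign. Groups did not overlap at failure for 214 of the 259, against 11.9% of all genes tested, a contrast that the choice of these genes used. With only the libraries of library series 2, which were also part of the choice, 40 of the 259 had an unadjusted p under 0.05 in compensation in the same direction, where 4.04% of all genes were higher and 3.91% lower. For the interaction 55 did, where 2.07% of all genes were higher and 0.733% lower.

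The natriuretic peptide genes rose with failure. Nppa, which encodes atrial natriuretic peptide, a hormone that the stretched heart secretes to lower blood volume, measured 17818, 3801, 2233 and 16381 CPM in AOB-F replicates 1 to 4. In the shams of the same age it measured 835, 833 and 616 CPM in Sham-LF replicates 1 to 3, so every failing heart lay above every sham. In compensation Nppa ranged from 269 to 4662 CPM (median 1334) in AOB-H and from 278 to 1199 CPM (median 872) in Sham-H, with replicates 6 and 7 of AOB-H below the sham median. Its log2 fold change was 3.72 ± 0.76 (SE, n = 4 and 3) in failure and 0.91 ± 0.53 (n = 6 and 6) in compensation, where it was 0.29 without AOB-H replicate 3. Nppb, the gene of brain natriuretic peptide, measured 1366, 666, 517 and 1220.1 CPM in AOB-F and 283, 374 and 383 CPM in Sham-LF, again without overlap, with log2 fold changes of 1.44 ± 0.38 and 0.36 ± 0.28. Of 8 tested genes of natriuretic peptides, their receptors and processing enzymes, only these 2 passed in failure, and the median of the list was 0.07.

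The promoters of 4 rising genes are printed for comparison, because Nppa and Nppb are neighbours on the same chromosome and rose together, and because Ankrd23 and Thbs4, which encode a titin-linked protein and a matrix protein, rose at both stages. The sequences are RefSeq's for GRCr8, from 250 bases before to 50 after the start site, 5′ to 3′ on the gene's strand. Capitals mark CATTCC or its reverse complement GGAATG, the core letters bound by TEAD factors, searched on both strands. Nppa lies at chr5:163711934-163712233 (+), Nppb at chr5:163699758-163700057 (+), Ankrd23 at chr9:46274461-46274760 (-) and Thbs4 at chr2:25760296-25760595 (-).
Nppa: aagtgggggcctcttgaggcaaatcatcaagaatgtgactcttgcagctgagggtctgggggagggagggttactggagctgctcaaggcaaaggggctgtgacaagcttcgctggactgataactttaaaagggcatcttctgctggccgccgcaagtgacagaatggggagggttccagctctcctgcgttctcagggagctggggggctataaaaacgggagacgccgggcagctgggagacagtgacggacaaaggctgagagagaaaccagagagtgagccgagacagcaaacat
Nppb: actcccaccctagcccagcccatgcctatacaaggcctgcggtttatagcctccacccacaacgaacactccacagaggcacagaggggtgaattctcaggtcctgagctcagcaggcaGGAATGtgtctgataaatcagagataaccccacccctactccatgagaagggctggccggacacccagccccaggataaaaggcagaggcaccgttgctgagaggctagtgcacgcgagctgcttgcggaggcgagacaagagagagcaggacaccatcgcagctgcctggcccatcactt
Ankrd23: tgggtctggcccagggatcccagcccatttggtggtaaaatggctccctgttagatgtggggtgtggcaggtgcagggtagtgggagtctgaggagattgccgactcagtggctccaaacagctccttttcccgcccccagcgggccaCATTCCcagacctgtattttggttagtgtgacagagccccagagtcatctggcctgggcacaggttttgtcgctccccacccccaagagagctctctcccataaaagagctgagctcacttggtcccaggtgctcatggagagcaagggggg
Thbs4: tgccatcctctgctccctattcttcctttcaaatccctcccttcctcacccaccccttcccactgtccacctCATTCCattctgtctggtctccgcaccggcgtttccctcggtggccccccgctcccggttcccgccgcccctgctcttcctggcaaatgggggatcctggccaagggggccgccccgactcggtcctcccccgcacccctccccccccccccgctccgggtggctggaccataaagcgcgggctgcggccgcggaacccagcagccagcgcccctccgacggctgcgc
Nppa held no match, Nppb held 1 at -131, Ankrd23 1 at -102 and Thbs4 1 at -178 from the start site. The promoters of Crtac1, Ltbp2, Myl4 and Myl7, also read, held none, so 3 of the 8 read held the motif. RefSeq promoters were matched for 267 of the 334 genes of the classes. The motif was in 30 of 122 matched promoters of genes higher in failure only (24.6%), in 4 of 33 of those higher at both stages (12.1%) and in 1068 of 9536 of all genes tested (11.2%), and in 14.2% of all RefSeq promoters of this length. It was in 12 of 84 promoters of genes lower in failure only (14.3%), in 1 of 18 of those lower at both stages (5.56%) and in 0 of 9 of the reversed genes higher in failure. The AP-1 letters TGANTCA, on both strands, were in 7.38% of promoters of genes higher in failure only, 9.09% of those higher at both stages, 4.99% of genes tested and 7.33% of all promoters. These are counts of letters in a window and not sites of binding.

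Matricellular proteins and crosslinkers, which tie collagen into a matrix and signal to fibroblasts, were the list with the most genes called in failure. Of 26 tested, 10 were higher and 0 lower, with a median of 0.72 in failure and 0.13 in compensation. Among all genes tested 1.9% were higher and 1.19% lower in failure, which is the share to set beside each list. Crtac1, which encodes a cartilage matrix protein, measured 10.1, 0.748, 0.887 and 9.51 CPM in AOB-F replicates 1 to 4 and 0.170, 0.496 and 0.482 CPM in Sham-LF. Its rise of 3.78 ± 0.77 was carried by replicates 1 and 4, while replicates 2 and 3 stayed under 1 CPM. Loxl1, a crosslinker of elastin, was higher in each AOB-F library (82.7, 40.2, 27.4 and 72.6 CPM) than in Sham-LF (19.0, 20.2 and 23.3 CPM), and its compensation value was -0.01 ± 0.24. Cilp, a matrix protein that binds TGF-beta, measured 66.4, 31.9, 16.1 and 69.5 CPM against 9.09, 8.36 and 7.23 CPM, and its value in compensation was 0.70 ± 0.35. Ctgf, a matricellular growth factor, rose by 2.37 ± 0.52 and Bgn, a small proteoglycan, by 1.25 ± 0.25. Comp, Tgm2 and Vcan completed the list's failure-only genes with 1.87, 0.77 and 0.96, and Thbs4 and Postn rose at both stages. Postn ran from 6.52 to 103 CPM in AOB-H, but its median there (11.7 CPM) lay within the 7.08 to 11.9 CPM of Sham-H.

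TGF-beta ligands, their latent binding proteins and receptors, which control fibroblast activation, had 7 of 23 tested genes higher and 0 lower, with medians of 0.35 and 0.04. The shares over all genes tested were 1.9% and 1.19%. Ltbp3, a latent binding protein, had the lowest p of all genes for the interaction. It measured 106, 90.2, 84.2 and 112 CPM in AOB-F and 66.4, 74.4 and 70.3 CPM in Sham-LF, while AOB-H, at 72.9 to 93.4 CPM (median 79.8), and Sham-H, at 71.7 to 102 CPM (median 85.3), overlapped. Its values were 0.48 ± 0.10 and -0.03 ± 0.07. Fam20c, a kinase of secreted proteins, was nearly as uniform, with 53.7, 44.7, 44.6 and 51.9 CPM against 36.9, 38.2 and 36.5 CPM. Gdf15, a stress cytokine, rose by 1.99 ± 0.46, Inhbb by 1.11 ± 0.24 and Fstl1 by 0.70 ± 0.17, with compensation values of 0.72, 0.28 and 0.03. Tgfb2, Ltbp2 and Inhba rose at both stages.

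For the collagen genes Col1a1 and Col3a1 the old shams lay below the young ones, while 0 of the 18 tested genes of fibrillar collagens and their processing were called between the shams and their median difference was -0.17. Col1a1, the main chain of type I collagen, measured 342, 216, 177 and 366 CPM in AOB-F and 129.9, 149 and 171 CPM in Sham-LF. The young groups were at 195 to 441 CPM (median 250.2) in AOB-H and 229 to 468 CPM (median 354) in Sham-H. Failing hearts lay above their own shams and none lay above the highest young sham. The log2 fold changes were 0.87 ± 0.25 and -0.33 ± 0.19, with a log2 difference of -1.19 between old and young shams that did not pass over all genes. Col3a1, of type III collagen, gave 0.67 ± 0.21 and -0.31 ± 0.16. Neither was called in failure. Of the 18 genes, Col14a1 (0.97 ± 0.21) and Plod2 (0.75 ± 0.18) passed. Col8a1, a network collagen, rose by 1.56 ± 0.37 in failure, with 58.2, 27.0, 18.5 and 63.0 CPM against 13.7, 12.1 and 16.4 CPM. Among metalloproteinases and their inhibitors, Mmp2 (0.39 ± 0.10) and Timp2 (0.55 ± 0.14) passed of 15 tested. Mmp2 measured 192 to 231 CPM in AOB-F and 157 to 167 CPM in Sham-LF. Its AOB-F range lay within that of Sham-H (171 to 234 CPM). Timp2 reached 524 CPM in AOB-F and at most 319 CPM in Sham-H.

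Genes of fatty acid uptake and oxidation, the adult heart's main fuel route, had values below 0 in failure. All 30 tested genes of the list had a log2 fold change below 0 in failure, and 18 of the 30 in compensation, with medians of -0.46 and -0.03, while 3 were called. Over all genes tested the medians were 0.01 and -0.00, and 1.19% were called lower. Fabp3, the fatty acid carrier of heart muscle, measured 2375, 3488, 3646 and 2243 CPM in AOB-F, under the 4433, 5215 and 4341 CPM of Sham-LF, and its values were -0.67 ± 0.15 and -0.12 ± 0.12. Acot2, a mitochondrial thioesterase, measured 70.7, 114, 151 and 76.2 CPM in AOB-F and 150.2, 182 and 169.6 CPM in Sham-LF, where AOB-F replicate 3 reached the lowest sham. Eci2, an isomerase of the same pathway, had values of -0.48 ± 0.13 and -0.10 ± 0.10. Cardiomyocyte markers moved in the same direction, with 8 of 9 below 0 in failure and summed levels of 81113 to 103972 CPM in AOB-F against 104824 to 127730 CPM in Sham-LF. The part of that shift in the fall of the fatty acid genes was not tested. Glucose uptake and glycolysis genes had a median of -0.13, with Eno3 the 1 lower gene of 28 and Slc16a3, a lactate transporter, the 1 higher.

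Of the largest failure-only rises, those of Krt14 and Vgll2 rested on 1 library and others on AOB-F replicates 1 and 4. Krt14, a keratin of epithelia, measured 0.234, 0.187, 0.190 and 12.0 CPM in AOB-F, with only replicate 4 above 0.24 CPM, and against the detection floor of Sham-LF (3 counts per library) its mean was at least 16.7-fold higher. The other 3 libraries held at most 3 counts each, so no fold is given without replicate 4. In compensation Krt14 ran from 0.0491 to 1.04 CPM (median 0.717) in AOB-H and from 0.0593 to 0.523 CPM (median 0.143) in Sham-H. Its AOB-H median thus lay above AOB-F replicates 1 to 3. Vgll2, a cofactor of TEAD factors, measured 5.00, 0.249, 0.0634 and 0.629 CPM, with replicate 1 highest, and its mean was at least 7.91-fold higher, or 1.67-fold without replicate 1. Testin was high in replicates 1 and 4 (2.34, 0.187, 0.127 and 2.03 CPM), and its mean was at least 6.23-fold higher. Wisp2, a matricellular protein, measured 34.7, 5.49, 2.22 and 51.7 CPM against 2.50, 1.63 and 2.29 CPM, Fcrl2 29.6, 4.68, 2.73 and 27.3 CPM against 1.36, 1.91 and 1.63 CPM, and Rxfp1, the relaxin receptor, 3.98, 0.623, 1.20 and 4.82 CPM against 0.114, 0.213 and 0.602 CPM. In all of these AOB-F replicates 1 and 4 were the highest pair. Every AOB-F library lay above every Sham-LF library for Fcrl2 and Rxfp1, whereas for Wisp2 replicate 3 lay among them. In compensation the AOB-H medians of Wisp2, Fcrl2 and Rxfp1 were 3.19, 2.57 and 0.885 CPM. Those of Sham-H were 2.10, 1.90 and 0.606 CPM. Vgll2 and Testin had medians of 0.140 and 0.137 CPM in AOB-H and 0.111 and 0.140 CPM in Sham-H. Clec5a, a receptor of myeloid cells with an interaction among the 5 lowest p, measured 3.59, 1.68, 1.52 and 3.56 CPM in AOB-F against 0.852, 0.567 and 0.482 CPM.

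Falls in failure only were smaller. Lsamp, a cell adhesion protein, measured 2.27, 11.6, 15.4 and 3.35 CPM in AOB-F and 22.7, 24.3 and 20.8 CPM in Sham-LF, a change of -1.44 ± 0.33 against -0.40 ± 0.24 in compensation. Fxyd3, a regulator of the sodium pump, changed by -1.30 ± 0.34 and H19, an imprinted noncoding RNA, by -1.29 ± 0.34, with compensation values of -0.16 and -0.04. Chmp4c was lower in failure by a small and even amount (13.3, 13.0, 12.3 and 11.5 CPM against 14.9, 17.3 and 14.5 CPM). Olr1085, an olfactory receptor gene, was the 1 failure-only gene that differed between old and young shams. It measured 1.53, 1.06 and 1.02 CPM in Sham-LF and 0.0781, 0.561, 0.254 and 0.419 CPM in AOB-F, while the 12 young libraries held 0 to 0.11 CPM, and no fold is given for compensation because both young groups lay at the floor. Only Cdh22, which is in no class, differed beside it between Sham-LF and Sham-H (2 genes, 0.0171% of genes tested). Repolarising and other ion channels had a median of -0.23 in failure and -0.01 in compensation over 22 tested genes. Among channels Kcne1 rose by 1.55 ± 0.41, Kcnj5 was lower (-0.74 ± 0.19) and Cacna1g, a T-type calcium channel, rose by 2.03 ± 0.40. Of 10 EGF family ligands and ErbB receptors, Tgfa was higher and Nrg1, the neuregulin ligand, lower (-1.96 ± 0.53, with -0.69 ± 0.34 in compensation).

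Stretch-sensing and Z-disc proteins, which link the sarcomere to mechanical load, had 4 of 15 tested genes higher in failure and 0 lower, with medians of 0.34 and 0.19. The shares over all genes tested were 1.9% and 1.19%. Ankrd2 and Synpo2l rose in failure only, and Ankrd23 and Xirp2 at both stages. Ankrd2, a relative of Ankrd23, measured 5.86, 2.74, 1.33 and 3.91 CPM in AOB-F and 0.454, 1.06 and 1.02 CPM in Sham-LF, with values of 2.03 ± 0.47 and 0.17 ± 0.39. Synpo2l, an actin-binding Z-disc protein, measured 641, 296, 214 and 579 CPM against 177, 193 and 194 CPM, with values of 1.20 ± 0.25 and 0.28 ± 0.19. In both genes every failing heart lay above every sham of its age.

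**Figure D3:**
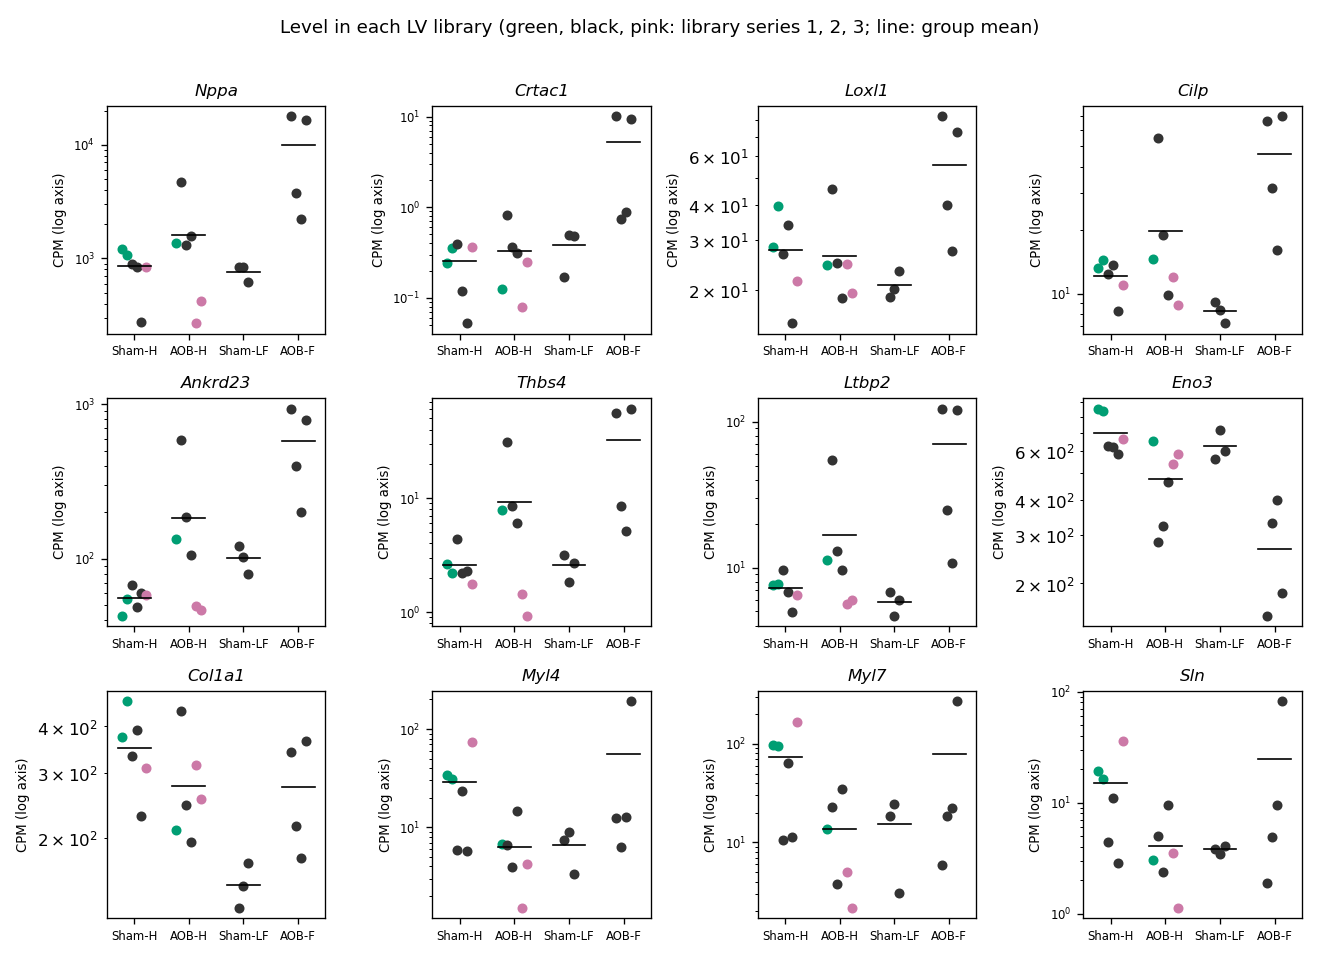
Level of selected genes in each LV library (CPM, log axis) for Sham-H, AOB-H, Sham-LF and AOB-F, with 1 point per library coloured by library series and a line at the group mean. AOB-F replicates 1 and 4 sit highest for most rising genes, and AOB-H replicate 3 stands above the other AOB-H libraries.

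At both stages 40 genes were higher and 23 lower, which is 17.5% of the 361 genes called in failure, where 3.14% and 3.55% of all genes tested had an unadjusted p under 0.05 in compensation in the higher and lower direction. The compensation values were smaller, with medians of 0.76 against 1.39 in failure for the higher genes and -0.25 against -0.62 for the lower ones. In none of the 63 did AOB-H and Sham-H separate completely (0.163% of genes tested did). Ankrd23, a stretch-responsive protein of the titin filament, measured 935, 396, 201 and 786 CPM in AOB-F and 121, 103 and 79.5 CPM in Sham-LF. In compensation it ran from 46.5 to 584 CPM (median 119.9) in AOB-H against 42.8 to 67.9 CPM (median 56.9) in Sham-H, and its values were 2.52 ± 0.56 and 1.56 ± 0.41. Tceal7 gave 241, 80.4, 53.8 and 219 CPM against 32.8, 38.8 and 20.4 CPM and values of 2.28 ± 0.52 and 1.35 ± 0.40. Thbs4, a thrombospondin of the matrix, measured 55.7, 8.60, 5.13 and 60.9 CPM in AOB-F and 3.18, 1.84 and 2.71 CPM in Sham-LF, and 0.932 to 31.3 CPM (median 6.92) in AOB-H. AOB-H replicate 3 stood above the other AOB-H libraries in all of these, and without it the compensation values were 0.92 for Ankrd23, 0.77 for Tceal7 and 1.05 for Thbs4. Hs3st2, a heparan sulfate sulfotransferase, rose from 0.284, 0.0709 and 0.301 CPM in Sham-LF to 19.6, 3.74, 1.33 and 9.30 CPM in AOB-F. In AOB-H, at few counts, it measured 0.442, 2.92, 0.416, 0.619, 0.0398 and 0.0491 CPM, with replicate 3 highest and replicates 6 and 7 at the floor, and the mean was at least 4.28-fold higher than the floor of Sham-H, or 1.79-fold without replicate 3. Phyhipl, Gba3 and Mmp12, a macrophage elastase, rose by 3.00, 1.79 and 2.26 in failure, with values of 1.97, 1.47 and 1.46 in compensation. Xirp2, a Z-disc protein, and Tgfa, an EGF family ligand, rose by 1.74 ± 0.37 and 1.95 ± 0.55 in failure.

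Eno3, the muscle enolase, was lower at both stages. It measured 153, 331, 399 and 184 CPM in AOB-F and 564, 717 and 602 CPM in Sham-LF, and changed by -1.23 ± 0.21 in failure and -0.54 ± 0.16 in compensation. Tmod4, a tropomodulin that caps actin filaments, changed by -1.26 ± 0.25 and -0.48 ± 0.19, Slc9a2, a sodium-proton exchanger, by -1.34 ± 0.36 and -0.64 ± 0.30, and Fcer2 by -1.21 ± 0.27 and -0.45 ± 0.20. Without AOB-H replicate 3, 25 of the 63 genes met the rule of both stages.

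The 12 genes that reversed were led by atrial muscle genes. Mybphl, Myl7, Myl4 and Sln, which encode myosin-associated proteins and a calcium pump regulator used by atrial cardiomyocytes, were lower in compensation and higher in failure. Myl7 measured 5.86, 18.6, 22.2 and 272 CPM in AOB-F and 18.6, 24.7 and 3.07 CPM in Sham-LF, and Myl4 measured 12.4, 6.36, 12.7 and 192 CPM against 7.44, 9.00 and 3.37 CPM. For all 4 genes AOB-F replicate 4 alone was high, and without it the failure values were 0.04 for Myl7, 0.67 for Myl4, 0.52 for Sln and 0.10 for Mybphl. Both young groups were spread, and Myl7 ran from 10.7 to 166 CPM (median 79.7) in Sham-H and from 2.16 to 35.2 CPM (median 9.31) in AOB-H. Without Sham-H replicate 7 the compensation values moved from -2.29 to -1.36 for Myl7, from -2.13 to -1.16 for Myl4, from -1.70 to -0.82 for Sln and from -3.06 to -1.93 for Mybphl, and none of the 4 then met the rule. Without AOB-F replicate 4, 3 of the 12 genes met the rule. Other atrial markers did not all move this way. Of the 11 tested genes of that list, which includes these 4, 7 lay above 0 and 4 below 0 in failure. In compensation 8 lay below 0. In failure 1 gene of the list was called higher and 1 lower. Stard10, also on the list, had a lower median in AOB-F (36.6 CPM) than in Sham-LF (51.5 CPM), with overlapping ranges. The summed atrial markers without Nppa were 2755, 1724, 1853 and 2810 CPM in AOB-F and 1742, 1482 and 1758 CPM in Sham-LF. In Sham-LF, Myl7, Myl4, Sln and Mybphl averaged 15.4, 6.60, 3.81 and 0.483 CPM, so other listed genes made up most of the sum. The sum therefore says little about these 4 genes, which were high in AOB-F replicate 4 alone. The part of atrial tissue in these values was not tested. Atp1b4 also reversed, at few counts, with 0.156, 0.187, 0.0634 and 1.33 CPM in AOB-F, where replicate 4 was high, and 0.170, 0 and 0 CPM in Sham-LF, and with 0 to 0.126 CPM in AOB-H and 0 to 1.46 CPM in Sham-H. Smaller reversals were those of Ccnd1, cyclin D1 (0.41 ± 0.15 and -0.29 ± 0.12), and Igfbp4 (0.26 ± 0.12 and -0.22 ± 0.09), and RGD1562161 was lower in failure after being higher in compensation (-0.61 ± 0.28 and 0.56 ± 0.21).

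Some standard markers and genes that the study followed did not pass in failure. Acta1, the skeletal actin of fetal heart, measured 5178, 2714, 1787 and 3299 CPM in AOB-F and 1594, 1355 and 1282 CPM in Sham-LF (1.20 ± 0.37 and, in compensation, 0.63 ± 0.28). Myh7, the slow myosin heavy chain, had values of 0.65 ± 0.30 and 0.40 ± 0.23, and Penk, the enkephalin precursor, of 0.39 ± 0.27 and 0.73 ± 0.20. No gene passed in failure in the lists of sarcomere isoforms (15 tested), circadian clock (15), immediate early genes (21), interferon-stimulated genes (22), cell cycle (30) and calcineurin targets (19), whose medians ran from 0.01 to 0.20. In the cell cycle list 25 of 30 genes lay above 0 in failure and 25 below 0 in compensation, where the medians over all genes tested were 0.01 and -0.00. Macrophage markers had 10 of 10 above 0 at both stages with medians of 0.59 and 0.27, and summed levels of 680 to 1174.6 CPM in AOB-F, 590 to 730 CPM in Sham-LF and 538 to 1005 CPM in AOB-H. Among fibroblast markers Pi16 (1.73 ± 0.31) and Mfap5 (0.97 ± 0.22) were the 2 called of 9 tested. The median of the 9 was 0.25 in failure, 2 lay below 0, and the summed levels of all 10 markers overlapped, at 6807 to 7909 CPM in AOB-F and 6385 to 7406 CPM in Sham-LF. Tnni3 was called lower among cardiomyocyte markers (-0.54 ± 0.14). Mesothelial markers were at 33.6 to 34.2 CPM in 3 AOB-F libraries and 101 CPM in replicate 4. The part of these cells in the matrix genes was not tested. At the edge of the threshold, Slit1 and Fundc2 (adjusted p 0.04997 for both) were the last genes inside and Eci1 and Slamf9 (0.0502 for both) the first outside.

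**Figure D4:**
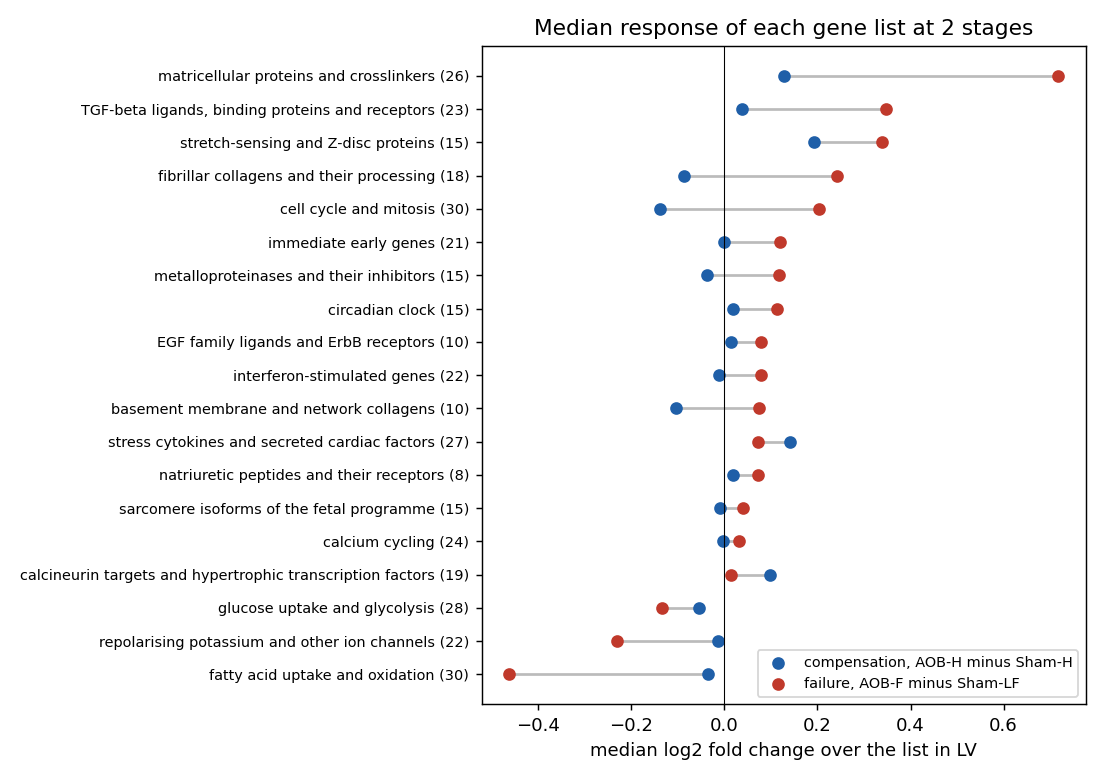
Median log2 fold change of each gene list in LV in failure and in compensation, with the number of tested genes in parentheses. Matricellular proteins lie at 0.72 in failure and 0.13 in compensation, and fatty acid genes at -0.46 and -0.03.

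In the septum of the same animals, whose libraries were not used to choose the genes, the failure response ran the same way. Of the 257 failure-only genes measured there, 252 had the same sign in failure, 198 had an unadjusted p under 0.05 in the same direction and 9 an adjusted one. The septum came from the same hearts, so these are not other animals. Over all genes tested in Spt, 5.72% were higher and 6.43% lower at an unadjusted p under 0.05, and 0.12% higher and 0.0516% lower at an adjusted one (20 genes). Yet in Spt 103 of the 257 also moved in compensation at an unadjusted p under 0.05 in the same direction, where 5.92% of all genes were higher and 10.1% lower, and 41 did without the septum libraries of the animals with uncertain labels. The interaction had an unadjusted p under 0.05 for 48 of the 257 in the same direction, against 1.73% and 1.27% of all genes. Nppa gave 3.58 ± 0.83 in failure (edgeR adjusted p = 0.0551) and 1.92 ± 0.52 in compensation. Sfrp1, an inhibitor of Wnt signalling, had a septal change of 1.62 ± 0.35 in failure (adjusted p = 0.0467) and 0.03 ± 0.24 in compensation, close to its LV values of 1.44 and 0.03. Lsamp was lower, at -1.61 ± 0.31 (adjusted p = 0.0249). All 63 genes of both stages kept their sign, 49 at an unadjusted p in failure and 52 in compensation, among them Eno3 (-1.13 ± 0.23, adjusted p = 0.0444), Tgfa (2.49 ± 0.44, 0.0249) and Phyhipl (3.44 ± 0.70, 0.0444). Of the 12 reversed genes, 4 had the same sign in failure as in LV and 11 the same sign in compensation (3 at an unadjusted p under 0.05). Myl4 gave -0.09 ± 1.05 in failure.

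In failing right ventricles after pulmonary artery banding (PAB-F, 3 animals, against Sham-RF, 2 animals), other animals and the other ventricle, many genes of the classes moved in the same direction. Of 63 genes of both stages, 58 had the same sign and 40 an unadjusted p under 0.05. Of 258 failure-only genes, 232 had the same sign and 71 an unadjusted p under 0.05, while 6.88% of all genes tested were higher and 6.46% lower. The difference between the classes was not tested. Without PAB-F replicate 2, whose chamber check lay at -0.43, the counts fell to 17 of 63 and 21 of 257, where 3.87% of all genes tested were higher and 3.61% lower. The RV median of the genes higher in failure only was then 0.21 in place of 0.42, and that of the genes higher at both stages 1.10 in place of 1.46. With an adjusted p 1 gene passed in RV, Usp40, which was in none of the classes. In the fit that kept PAB-F replicate 2, the log2 fold changes in RV were 3.59 ± 1.14 for Ankrd23 and 6.22 ± 2.36 for Nppa. Both had an unadjusted p under 0.05, whereas the value of Sfrp1 was 0.18 ± 0.44 and that of Fam20c 0.05 ± 0.11.

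**Figure D5:**
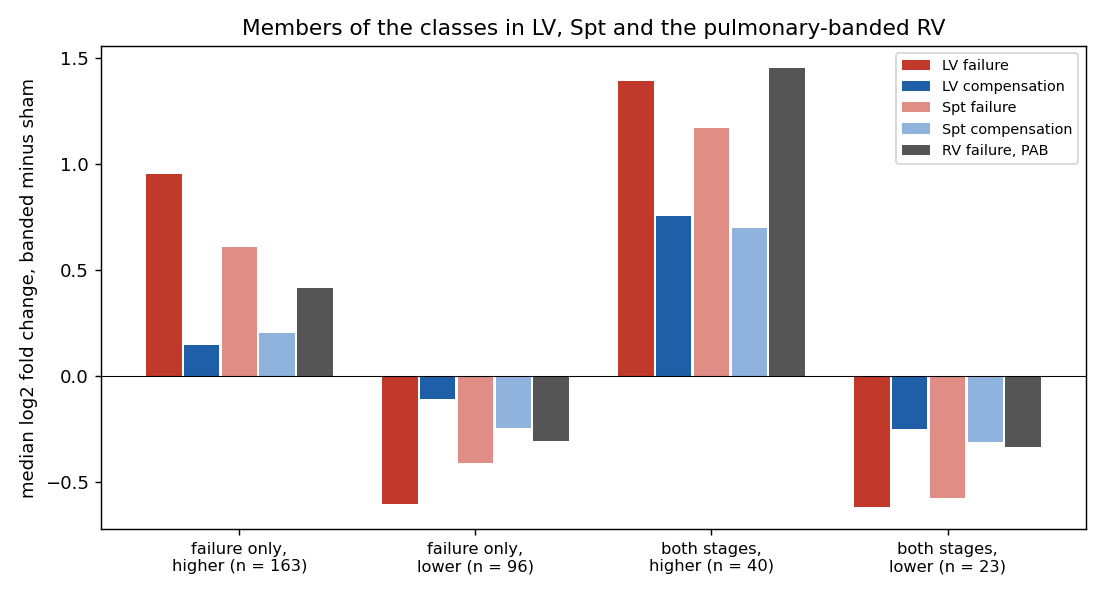
Median log2 fold change of the genes of each class and direction (bars, with no error shown) in LV and Spt at both stages of aortic banding and in RV at failure after pulmonary artery banding. Genes higher at both stages have a median of 1.39 in LV and 1.46 in RV, and genes higher in failure only 0.95 and 0.42. Without PAB-F replicate 2, which is not drawn, the RV medians were 1.10 and 0.21.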

How the data were processed

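RNA of LV, Spt and RV of 33 rats was measured by poly(A) sequencing. By the methods of the study, the authors used Trim Galore for trimming, STAR for alignment to Rnor6.0 (UCSC annotation), featureCounts for gene counts (reads over several genes not counted) and DESeq2 for normalisation. The strand setting of the counting is not given in the sources used here, so reads of overlapping genes on opposite strands cannot be assigned with certainty. The deposited table holds 17337 genes (2218 with no count) with a column each of counts, normalized counts and FPKM per library. The deposited counts are whole and not normalized, and only they entered the tests. The normalized counts deposited are a signal, the counts divided by a DESeq2 size factor, and the deposited FPKM divide these by gene length as well. All per-sample columns were mapped to samples from the labels. The RV labels name the left ventricle in one tissue field, and title and source were followed.

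Counts were fitted with edgeR 4.0.16 in R 4.3.3 (TMM, filterByExpr by group, quasi-likelihood test, Benjamini-Hochberg adjustment over all genes) in 1 fit of 30 LV libraries with 7 conditions and the library series (3 runs of library numbers in the labels) as terms. The log2 difference between RV and LV of each animal over 50 genes that separate them was divided by the median of the other animals, and the 3 animals farthest on the opposite side (-1.18 to -1.12) were left out. PAB-F replicate 2 (-0.43), PAB-H replicate 4 (-0.21), AOB-F replicate 4 (-0.03) and PAB-F replicate 3 (-0.01) were also below 0 and were kept. Spt was fitted with 33 libraries and RV with 30. CPM levels are counts per M of the TMM-scaled total. The script was tested on simulated data. A gene with 3 or fewer counts in each library of a group was at the floor, and a fold against it is a lower bound that covers counting error only. Total counts of 12.6 to 24.2 M (mega) per LV library limit low genes. P-values set each change against the spread between animals, estimated over all conditions of a fit and not in the compared groups alone.

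The members, classes and gene lists were chosen with earlier results of these data known. Genes were named by a rule: 10 that the study followed or that are standard markers, in failure only the 8 largest rises and 5 largest falls, at both stages the 6 rises and 4 falls with the largest smaller change, the 4 largest reversals in each direction, the 5 lowest p for the interaction, all averaging 1 CPM or more in the highest group and passing over symbols beginning with LOC, RGD or Mir, and the called genes of the lists. Of the genes this rule gives, 1 is not reported here. Dusp26, Usp40, Ccnd1, Igfbp4, RGD1562161, Atp1b4 and the 4 genes at the threshold fall outside the rule and were named after their values were seen. Promoters came from a RefSeq table of GRCr8, which is not the authors' build. Alternatives were RLE normalization, DESeq2 1.42.0, no filter, no series term, other sets of libraries, a replicate block, leaving out each library and, chosen after seeing the data, RV without PAB-F replicate 2.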

Additional observations from a re-analysis of the deposited data

Results flagged for a closer look

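In groups of 4 or 6 libraries, a single library lay far from the rest for 19 of 117 pairs of gene and group. Chance gives about 1 in 20 for unrelated values that are normally distributed, whereas CPM were used here without a transformation. These genes were chosen from the same LV values and move together, so that rate does not apply to them as a group. The measure is the gap between that library and its nearest neighbour, as a share of the whole range of the group. AOB-H replicate 3 was the distant library 9 times and AOB-F replicate 4 was it 5 times.

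In AOB-H, replicate 3 lay above the others for Nppa (gap 0.704 of the range), Acta1 (0.705), Ankrd23 (0.738), Tceal7 (0.783), Myh7 (0.626), Fcrl2 (0.850), Hs3st2 (0.799), Phyhipl (0.814) and Thbs4 (0.750). Nppa was at 4662 CPM in that library and at 269 to 1571 CPM in the others. In AOB-F, replicate 4 lay above the others for Krt14 (0.996), Mybphl (0.954), Myl7 (0.938), Myl4 (0.966) and Sln (0.906), and replicate 1 for Vgll2 (0.885). The summed atrial markers without Nppa were 2810 CPM in AOB-F replicate 4 and 1724 to 2755 CPM in the other AOB-F libraries. Most of that sum came from listed genes other than Mybphl, Myl7, Myl4 and Sln. The part of atrial tissue in these values was not tested. Single libraries stood apart for Mybphl in AOB-H replicate 5 (0.766), for Thbs4 in Sham-H replicate 3 (0.674), and for Vgll2 (0.751) and Olr1085 (1.000) in Sham-H replicate 2, the last 2 at levels of a few counts.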

How the results depend on the processing

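The number of genes called in failure depended strongly on the libraries. Leaving out each library in turn gave 0 to 1355 genes in failure, 0 to 973 in failure only, 0 to 203 at both stages, 6 to 43 reversed, 0 to 175 in none of the classes, 1 to 6 between old and young shams and 0 to 104 called genes of the lists, against 361, 259, 63, 12, 39, 2 and 39 with all libraries. For the failure calls, failure only, both stages, none of the classes and the lists, the low ends came from leaving out a Sham-LF replicate and the high ends from AOB-F replicate 3. The 43 reversed genes came without Sham-H replicate 5. In compensation and for the interaction these fits called 0 genes. Without the series term 102 genes were called in failure, 73 in failure only, 28 at both stages, 1 in none of the classes, 1 between the shams and 23 in the lists. With only the 19 libraries of the 4 groups there were 0 in failure, in failure only, at both stages, in none of the classes and in the lists. Within library series 2 these were 0 as well, with 4 reversed and 1 between the shams. With all 33 LV libraries 25 reversed and 17 fell in none of the classes. DESeq2 called 729 in failure, 445 in failure only, 108 at both stages, 173 in none of the classes, 12 between the shams, 79 in the lists and 1 in compensation. RLE normalization and no filter on low counts gave 363 and 359 in failure. Named genes did not change direction in a called value under these settings. Total counts limit genes of a few counts, such as Olr1085.

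Animals share replicate numbers across groups, but the numbers did not pair them. The correlations of same-numbered deviations ran from -0.28 to 0.75 between AOB-H and Sham-H and from -0.02 to 0.10 between AOB-F and Sham-LF. After the library series was taken out, those between AOB-H and Sham-H ran from -0.43 to 0.01. With the replicate block 1 gene was called in failure (Hs3st2), 0 in failure only, 1 at both stages, 0 in none of the classes, 8 between the shams and 0 in the lists. The cause of these changes was not tested.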
